A study of Mus musculus with 12 samples.

Results

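The genes described here are the subunits, activators and assembly factors of the proteasome, taken by name as every gene whose symbol is Psm, a letter from a to g and a number. The rule found 48 of the 38924 genes in the tables: 8 Psma and 11 Psmb genes of the core particle, 6 Psmc ATPase genes, 14 Psmd genes, 4 Psme activator genes with the inhibitor gene Psmf1, and 4 Psmg assembly genes. Whole spinal cord was profiled by RNA sequencing at 8 weeks of age in 6 ETAQ+/- mice (ETAQ below) and 6 ETAQ+/+ mice (WT below), each group made up of 3 females and 3 males, and the strain background of all was B6J;FVB. ETAQ mice carry 1 copy of a Gars allele that lacks the amino acids spelled by its name, in every cell. Gars encodes glycyl-tRNA synthetase, and its human counterpart is a gene of inherited axonal neuropathy.

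The proteasome is the protease that degrades proteins tagged with ubiquitin. Its core is a stack of rings built from alpha subunits (Psma), which gate the entrance, and beta subunits (Psmb), which include the catalytic ones. A regulatory particle caps the core: its ATPases (Psmc) unfold substrates and feed them in, and most Psmd products form the rest of its base and its lid, which bind ubiquitin chains and cut them off. In neurons the proteasome removes damaged proteins and adjusts synaptic composition, and a shared set of transcription factors, among them the product of Nfe2l1, sets the levels of its subunit transcripts together.

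The libraries held 23595929 to 41452662 expected counts in all, and the 48 genes took 0.300% to 0.310% of the counts in ETAQ libraries and 0.302% to 0.325% in WT libraries. Gars transcript stood at 145 ± 5.79 normalised CPM (counts scaled to a common library size by TMM) in ETAQ cords and at 127 ± 4.95 in WT cords (SD, n = 6 each), a log2 fold change of 0.19 ± 0.03 (SE; adjusted p = 0.00408, edgeR). A small deletion that leaves the transcript in place is not read by gene counts, so this value does not check the labels. Markers of neurons, astrocytes and oligodendrocytes were present in all 12 libraries. Libraries of mice 1 to 6 stood apart from those of mice 7 to 12: summed red cell markers lay between 1890 and 3511 normalised CPM in the first set and between 143 and 268 in the second, and summed leukocyte and marrow markers between 59.1 and 107 in the first and between 4.91 and 6.66 in the second. Summed Schwann cell markers lay between 169 and 460 normalised CPM in the first set and reached up to 6.95 in the second. Summed skeletal muscle markers lay between 30.5 and 694 in the first set and between 0.441 and 1.07 in the second. Summed fibroblast markers lay between 149 and 327 in the first set and between 61.3 and 73.0 in the second. Both sets hold 3 mice of each genotype. But the 3 WT mice of the first set are males and the 3 of the second are females. Sex and set thus cannot be told apart within WT. The Gars difference was 0.18 within mice 1 to 6 (adjusted p = 0.146) and 0.20 within mice 7 to 12 (adjusted p = 0.0871, edgeR), so neither set of 6 mice alone called it.

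Of the 48 genes, 46 had enough counts to be tested, among 17189 genes in all. Psma8, which encodes an alpha subunit of testis, was not tested, with 1 to 6 counts in ETAQ libraries and 2 to 6 in WT libraries. Psmb11, which encodes the thymus-specific catalytic subunit, was not tested either, with 3.88 to 7.89 expected counts in ETAQ libraries and 2.10 to 7.08 in WT libraries. Both genes were thus at a few counts in cord of either genotype.

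Levels per gene length are given in TPM (transcript levels scaled by length and library), as means over 12 mice. They were mostly higher for the structural subunits than for the accessory genes. The 31 constitutive subunits of the core and the regulatory particle ranged from 55.5 TPM (Psmd11, a lid subunit) to 302 TPM (Psmc5), with a median of 118 TPM. Medians were 134 TPM for the 7 constitutive alpha subunits, 164 TPM for the 7 constitutive beta subunits, 130 TPM for the 6 ATPases and 94.1 TPM for the 11 constitutive Psmd subunits. The chaperones that assemble the base were lower, with Psmd9 at 14.2 TPM, Psmd10 at 19.9 TPM and Psmd5 at 40.2 TPM. The Psmg genes, whose products pair and guide alpha subunits into a ring, lay between 15.3 TPM (Psmg4) and 23.7 TPM (Psmg2). Among activators, Psme3, which encodes the nuclear PA28 gamma, stood at 74.4 TPM, above the structural gene Psmd11. Psme4, which encodes PA200, stood at 18.9 TPM.

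At the top of the order, Psmc5 stood at 289 ± 6.80 TPM in ETAQ cords and 315 ± 11.6 TPM in WT cords. The next genes, Psmb7 and Psmc1, did not differ from each other beyond their spread, with Psmb7 at 210 ± 8.61 TPM in ETAQ and 208 ± 13.0 TPM in WT, and Psmc1 at 203 ± 4.57 TPM in ETAQ and 212 ± 9.60 TPM in WT. Psmc5 was above both in either genotype by more than their spread. At the bottom of the tested genes stood the inducible catalytic subunits Psmb8 (5.25 TPM) and Psmb9 (1.74 TPM).

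**Figure D1:**
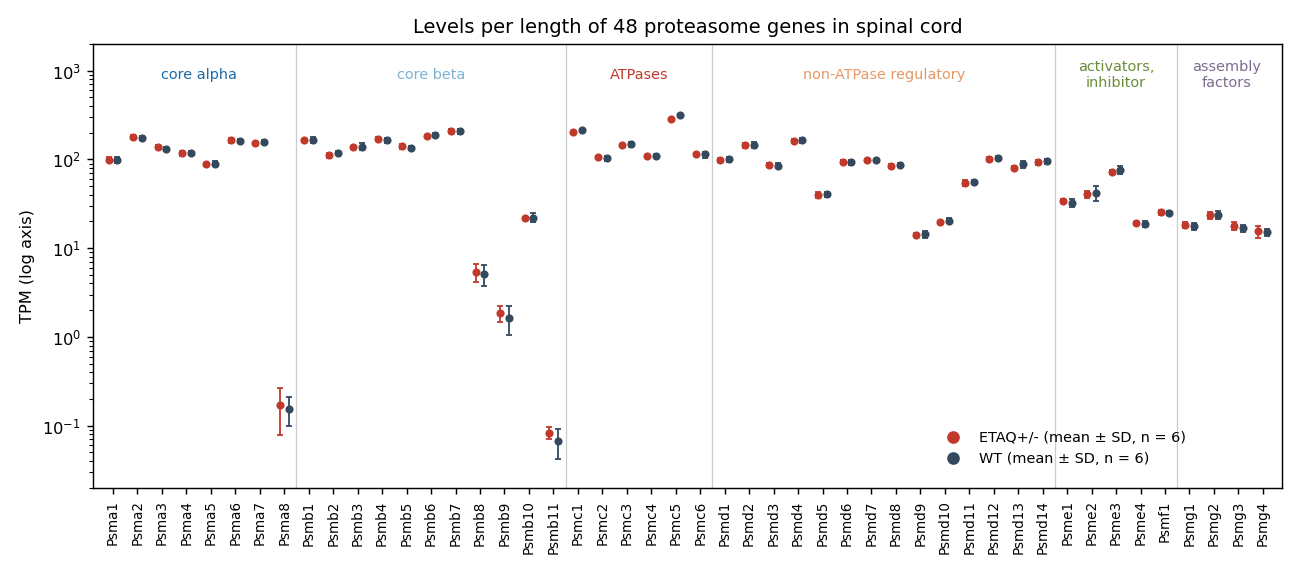
Levels per length of the 48 proteasome genes: TPM on a log axis against gene, in particle order, with ETAQ (red, left of each pair) and WT (dark, right) as mean ± SD over 6 mice each. Psmc5 is the highest at 302 TPM over both genotypes, Psmb8 and Psmb9 fall to 5.25 and 1.74 TPM, and Psma8 and Psmb11 lie lowest.

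The comparison of genotypes called 1 of the 46 genes, Psmc5, which was lower in ETAQ cords, and 0 as higher (edgeR quasi-likelihood test with sex as covariate, adjusted p under 0.05 over all genes). Over all tested genes, 1.34% were called lower and 0.582% higher, so 1 call in 46 is near that background. Below that threshold the differences were small and mostly in 1 direction. The log2 fold change was below 0 for 36 of the 46 genes, against 48.1% of all tested genes, and its median was -0.05, against 0.00 over all tested genes. At an unadjusted p under 0.05, 13 of the 46 were lower and 0 higher, where 6.36% of all genes were lower and 4.53% higher. These members share libraries and scaling and are not independent of one another.

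Scaling the libraries in another way moved the members and all genes by a like amount. With RLE scaling 35 members were below 0, against 47.1% of all genes, with upper-quartile scaling 34, against 43.4%, and with library totals alone 32, against 36.0%. The members' median less that of all genes was -0.06 under each of these and in the TMM fit. The count lower at an unadjusted p under 0.05 was 13 with RLE scaling, 8 with upper-quartile scaling and 4 with library totals alone, where 6.14%, 5.31% and 3.76% of all genes were lower in that order. Without WT mouse 4 the count was 8, where 5.95% of all genes were. Within mice 1 to 6 it was 4, where 4.92% of all genes were lower at that level, and within mice 7 to 12 it was 7, where 5.54% were. Members lower in both sets of mice numbered 30 of 46, against 26.8% of all genes, and those lower in both sexes 29 of 46, against 26.1%. The fits by sex held no set term, and sex largely coincides with set.

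**Figure D2:**
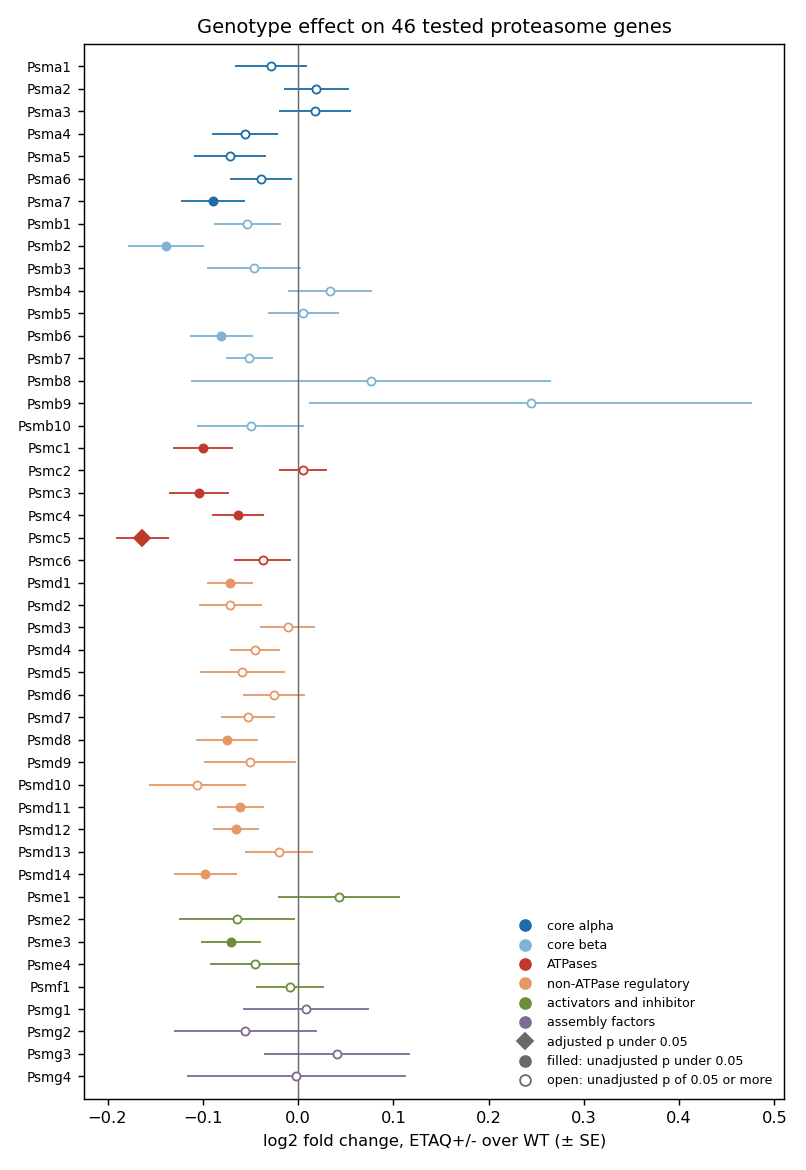
Genotype effect on the 46 tested genes: log2 fold change of ETAQ over WT (x axis, with SE bars) for each gene, coloured by particle. Psmc5 (diamond) is the 1 call at -0.16, the 14 Psmd genes all lie left of 0 between -0.11 and -0.01, and Psmb8 and Psmb9 have the widest error bars.

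Among the ATPases, 5 of 6 were below 0 and the median was -0.08. Psmc5, which encodes the ATPase subunit Rpt6, fell in ETAQ cords by 10.7%. Its lowest, median and highest normalised CPM were 178, 183 and 191 in ETAQ mice, against 193, 208 and 213 in WT mice. The 6 ETAQ values all lay below the 6 WT values, with mouse 7 the lowest of the WT and mouse 5 the highest of the ETAQ mice. Psmc5 was the 1 tested member whose groups did not overlap, and 1.35% of all tested genes were separated with ETAQ lower. The means were 184 ± 4.45 in ETAQ and 206 ± 7.68 in WT (SD, n = 6 each), a log2 fold change of -0.16 ± 0.03 (SE; adjusted p = 0.00408, edgeR).

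The Psmc5 difference was -0.18 within mice 1 to 6 (adjusted p = 0.0421) and -0.14 within mice 7 to 12 (adjusted p = 0.152, edgeR), so the call was lost in the second set while the direction stayed. Over all genes, 0.524% were called lower in the first set and 0.686% in the second. By sex it was -0.20 in males (adjusted p = 0.0322) and -0.13 in females (adjusted p = 0.252), and the difference between the sexes, -0.07 ± 0.05, was not called (adjusted p = 0.911, edgeR). Over all genes, 0.442% were called lower in males and 0.541% in females. Leaving out any 1 mouse kept the call, with adjusted p between 0.00302 and 0.0156 (edgeR). Psmc5 lies on the plus strand at chr11:106256154-106263120 (GRCm38), and 0 of its exon bases overlap another gene and 0% of its 75-base sequences occur in another gene's transcripts.

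Neuronal markers moved with the same groups. Summed levels of 4 neuronal markers were 2545 to 2794 normalised CPM in ETAQ cords and 2839 to 3009 in WT cords, with 1 of the 4 called (Stmn2, which encodes a microtubule regulator of axons, lower). Summed levels of 4 motor neuron markers were 45.0 to 55.8 in ETAQ and 79.3 to 93.7 in WT, with Chat and Prph called lower, as they and Stmn2 also were within each set of mice, and those of 4 astrocyte markers were 3149 to 3795 in ETAQ and 2593 to 3309 in WT, with 0 called. The part of these shifts in the proteasome values was not tested. In bulk tissue, fewer cells of a type and less RNA per cell cannot be told apart.

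The other ATPase genes showed smaller differences that did not pass adjustment. Psmc3, which encodes the subunit Rpt5, had 106, 109 and 118 normalised CPM (lowest, median, highest) in ETAQ and 115, 118 and 125 in WT, with mouse 6 the 1 ETAQ mouse inside the WT range. Its log2 fold change was -0.10 ± 0.03 (adjusted p = 0.149, edgeR). Psmc1, which encodes Rpt2, was at -0.10 ± 0.03 and Psmc4 at -0.06 ± 0.03, both at an unadjusted p under 0.05. Psmc6 stood at -0.04 ± 0.03, and Psmc2, at 101 ± 1.41 in ETAQ and 101 ± 2.46 in WT, had a log2 fold change of 0.00 ± 0.03. Psmc3 shares 8.25% of its exon bases with a gene on the opposite strand, and 6.45% of the 75-base sequences of Psmc1 occur in other genes.

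**Figure D3:**
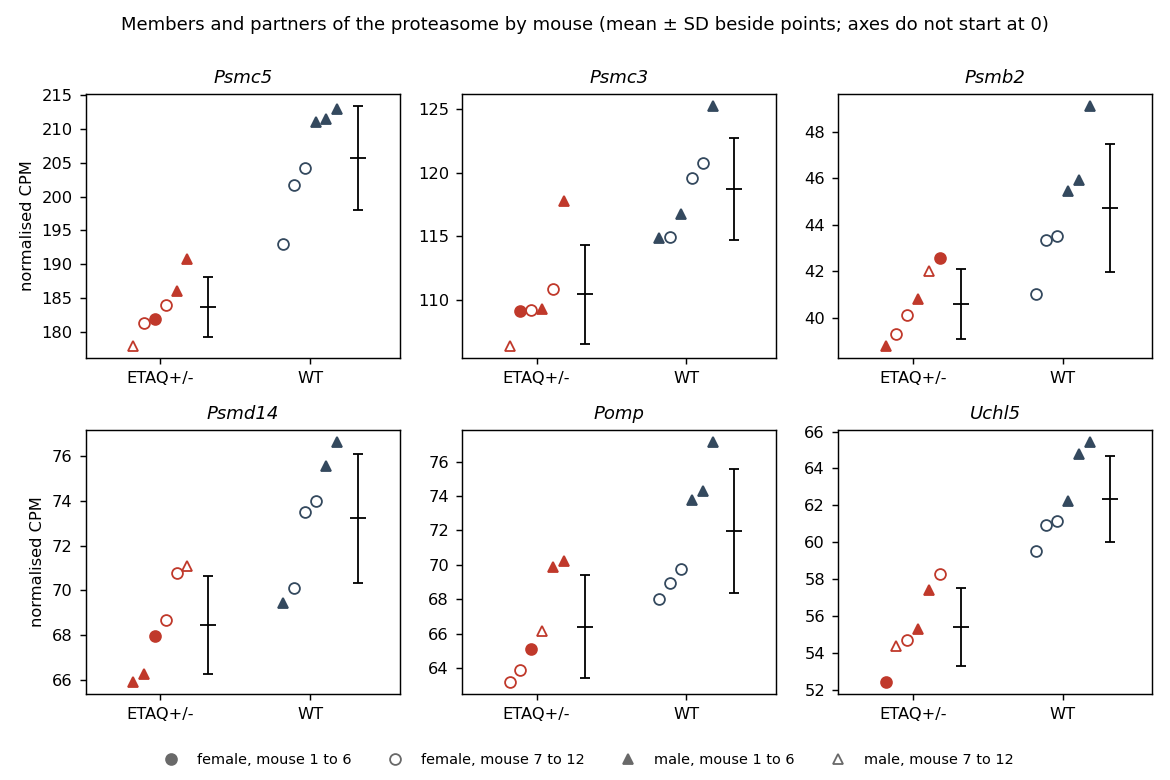
Normalised CPM (y axes, which do not start at 0) of 4 members and 2 partners of the proteasome in each mouse, ETAQ left and WT right, with mean ± SD beside the points (n = 6 each). Circles are females and triangles males, filled for mice 1 to 6 and open for mice 7 to 12, and the ETAQ and WT points are separate for Psmc5 and Uchl5 and overlap for Psmc3, Psmb2, Psmd14 and Pomp.

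Among the Psmd genes, 14 of 14 had a log2 fold change below 0 and 0 were called, with a median of -0.06 and a range from -0.11 to -0.01. All 14 were also below 0 with RLE and upper-quartile scaling, and 12 of 14 with library totals alone, where Psmd3 and Psmd13 were above 0 and 36.0% of all genes were below 0. Without WT mouse 4 or WT mouse 7, Psmd3 was above 0. Within mice 1 to 6 it was 14 of 14, against 49.6% of all genes, and within mice 7 to 12 it was 13 of 14, against 49.5%. The 5 with an unadjusted p under 0.05 were Psmd14, Psmd1, Psmd12, Psmd8 and Psmd11, and with library totals alone 0 reached it.

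Psmd14 encodes the deubiquitinase of the lid, which removes ubiquitin chains as substrates enter. It had 65.9, 68.3 and 71.1 normalised CPM (lowest, median, highest) in ETAQ and 69.4, 73.7 and 76.6 in WT, and its log2 fold change was -0.10 ± 0.03 (adjusted p = 0.218, edgeR). Its groups overlapped in part. Psmd1, which encodes the largest scaffold subunit of the base, had 159, 162 and 166 in ETAQ and 164, 171 and 176 in WT, with a log2 fold change of -0.07 ± 0.02 (adjusted p = 0.231, edgeR). The lid gene Psmd12 had 94.5, 95.4 and 97.7 in ETAQ and 97.4, 100 and 102 in WT, where only WT mouse 2 lay inside the ETAQ range. Psmd4, which encodes a ubiquitin receptor, stood at -0.04 ± 0.03. The base chaperone gene Psmd10 stood at -0.11 ± 0.05, Psmd5 at -0.06 ± 0.04 and Psmd9 at -0.05 ± 0.05, none at an unadjusted p under 0.05. Of the 75-base sequences of Psmd9, 24.3% occur in another gene, and of those of Psmd1, 5.51% occur in other genes.

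The core particle showed 11 of 17 tested genes below 0 and 0 called. Among alpha subunits, Psma7 had 55.6, 60.0 and 61.1 normalised CPM (lowest, median, highest) in ETAQ and 60.2, 62.4 and 68.3 in WT, and its log2 fold change was -0.09 ± 0.03 (adjusted p = 0.289, edgeR). Psma5 stood at -0.07 ± 0.04 (adjusted p = 0.543, edgeR), and 35.2% of its 75-base sequences occur in other genes, so the division of its reads is uncertain. Psma2 and Psma3 were above 0, at 0.02 ± 0.03 and 0.02 ± 0.04. The alpha genes thus gave 5 of 7 below 0, with a median of -0.04.

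Of the beta subunits, Psmb2 had the smallest p. It had 38.8, 40.5 and 42.6 normalised CPM (lowest, median, highest) in ETAQ and 41.0, 44.5 and 49.1 in WT, with WT mouse 7 inside the ETAQ range and WT mouse 4 the highest. Its log2 fold change was -0.14 ± 0.04 (adjusted p = 0.123, edgeR), at -0.20 within mice 1 to 6 and -0.07 within mice 7 to 12. Without ETAQ mouse 1 it was called (adjusted p = 0.0484, edgeR).

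Of the 3 constitutive catalytic subunits 0 were called, and differences among them were not tested. Psmb6, which carries the caspase-like activity, was at 59.4 ± 2.41 normalised CPM in ETAQ and 62.8 ± 2.47 in WT, a log2 fold change of -0.08 ± 0.03 (adjusted p = 0.369, edgeR). Psmb7, which carries the trypsin-like activity, was at -0.05 ± 0.02 (adjusted p = 0.479, edgeR). Psmb5, which carries the chymotrypsin-like activity, was at 52.3 ± 2.32 in ETAQ and 52.1 ± 2.32 in WT, a log2 fold change of 0.01 ± 0.04 whose sign turned when single mice were left out. For Psmb5, 36.8% of the 75-base sequences occur in other genes, and for Psmb7 7.83%.

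Activators and assembly factors held 0 calls. Psme3 had 93.1 ± 2.97 normalised CPM in ETAQ and 97.7 ± 3.49 in WT, a log2 fold change of -0.07 ± 0.03 (adjusted p = 0.434, edgeR). Psme1 and Psme2, whose products form the interferon-inducible PA28 ring, stood on either side of 0, at 0.04 ± 0.06 and -0.06 ± 0.06. For Psme2, 22.9% of the 75-base sequences occur in another gene. Psme4 was at -0.05 ± 0.05, and Psmf1, which encodes the inhibitor and transport adaptor PI31, at -0.01 ± 0.04. The 4 Psmg genes had a median of 0.00, with Psmg2 at -0.06 ± 0.07 and Psmg3 at 0.04 ± 0.08. Psmg4 is counted at 2.61 ± 0.33 normalised CPM in ETAQ and 2.63 ± 0.30 in WT, and its standard error of 0.11 limits what could be seen.

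The immunoproteasome is the form in which Psmb8, Psmb9 and Psmb10 replace Psmb5, Psmb6 and Psmb7, typically in blood cells or after interferon. In TPM, Psmb8 amounted to 3.83 ± 0.85% of Psmb5 in ETAQ and 3.79 ± 1.11% in WT. Psmb9 amounted to 1.01 ± 0.21% of Psmb6 in ETAQ and 0.881 ± 0.34% in WT. Psmb10 amounted to 10.4 ± 0.35% of Psmb7 in ETAQ and 10.7 ± 1.62% in WT. The ranges of the genotypes overlapped for each ratio, and 0 of the 3 inducible genes was called between genotypes, with log2 fold changes of 0.08 ± 0.19, 0.24 ± 0.23 and -0.05 ± 0.06 for Psmb8, Psmb9 and Psmb10.

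Psmb8 differed with the set of mice instead. Its lowest and highest values were 2.58 and 3.82 normalised CPM in mice 1 to 6, against 1.83 and 2.36 in mice 7 to 12, without overlap. The share of all genes without overlap between the sets was not counted. For Psmb8, 9.97% of the 75-base sequences occur in another gene. The log2 fold change was 0.73 ± 0.16 (adjusted p = 0.0107, edgeR with sex and genotype as covariates), the 1 member called between sets, where 7.89% of all genes were called. Psmb9 lay between 0.803 and 1.71 in the first set and between 0.614 and 1.11 in the second, and Psmb10 between 12.8 and 15.8 in the first and between 11.5 and 13.5 in the second, neither called. The leukocyte, marrow, red cell, Schwann cell, skeletal muscle and fibroblast markers given above moved with the same sets. The part of these markers in the Psmb8 difference was not tested.

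**Figure D4:**
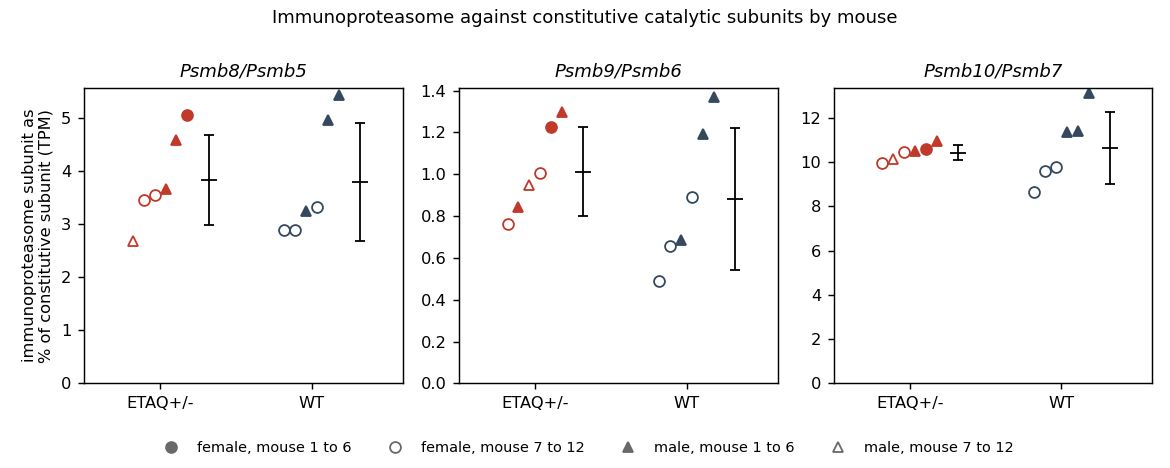
Each inducible catalytic subunit as a percentage of the constitutive subunit it replaces, from TPM, in each mouse (y axes from 0), ETAQ left and WT right, with mean ± SD (n = 6 each). Psmb10 reaches about 10% of Psmb7 in both genotypes, Psmb8 under 6% of Psmb5 and Psmb9 under 2% of Psmb6, and most filled points (mice 1 to 6) lie above the open ones.

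Many members were high or low in the same mouse, and the mean level of the constitutive subunits was spread more widely over WT than over ETAQ mice. The mean log2 difference of the 31 constitutive subunits from their own means ran from -0.04 to 0.00 over ETAQ mice (SD 0.01) and from -0.04 to 0.10 over WT mice (SD 0.04). The ranges of the genotypes overlapped. Over all 46 genes, 26 to 36 were below their own mean in each ETAQ mouse, against 5 to 34 in WT mice. WT mouse 4 was the high end, with 5 genes below their mean, and WT mouse 7 the low end, with 34. The mean over 46 genes was 0.04 to 0.08 in the 3 WT males and -0.06 to 0.00 in the 3 WT females. This division is also that of the 2 sets. The 31 constitutive subunits did not divide so. Their mean in WT male 2 was 0.01, below WT females 10 (0.02) and 12 (0.03). The wider spread in WT did not hold for every member. For the 4 assembly factors the SD of the mean was 0.08 in both genotypes. Psma3 had an SD of 3.68 normalised CPM in ETAQ and 2.76 in WT. No test of the difference in spread was made.

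**Figure D5:**
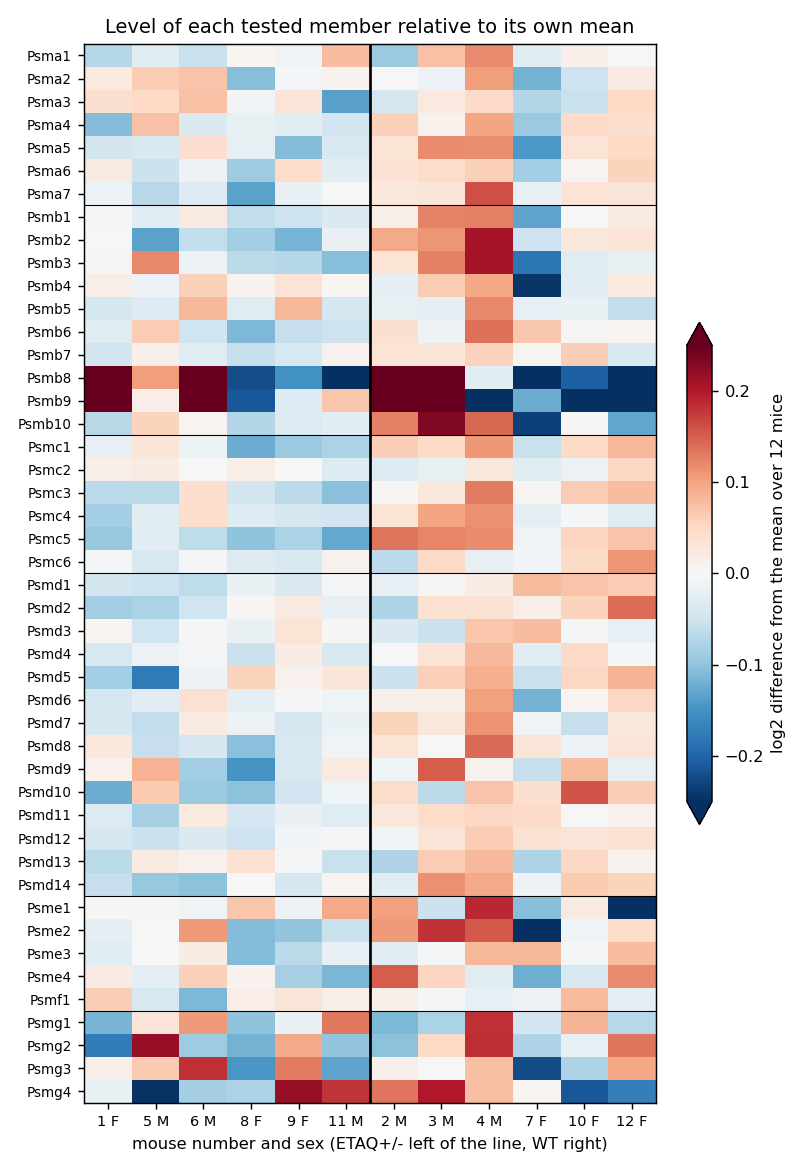
Log2 difference of each of the 46 tested genes (rows, in particle order) from its own mean over 12 mice, with ETAQ mice left of the line and WT mice right (columns, mouse number and sex), on a colour scale cut at -0.25 and 0.25. WT mouse 4 is red for most genes, WT mouse 7 blue, and the ETAQ columns are mostly pale blue. Psmb8 follows mice 1 to 6 against mice 7 to 12, and Psmb9 does so only in part, with WT mouse 4 at -0.37.

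Over the 46 genes, 0 were called between males and females, where 0.0931% of all genes were called (edgeR), and DESeq2 and limma-voom also called 0. At an unadjusted p under 0.05, 5 were higher in males and 0 lower, against 8.06% and 8.72% of all genes. The lowest p was that of Psmb10, at 14.4 ± 0.97 normalised CPM in males and 12.7 ± 0.72 in females (SD, n = 6 each; adjusted p = 0.184, edgeR). The genotype effect differed between sexes for 0 members by edgeR, DESeq2 and limma-voom, and edgeR called 0 (0%) of all tested genes. At an unadjusted p under 0.05 it also differed for 0 of the 46, where 4.96% of all tested genes did (edgeR). Sex largely coincides with set, as given above, and neither the sex fit nor the interaction fit held a set term. Differences by sex are thus not separated from those by set.

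Lists of genes that work with the proteasome but fall outside the name rule gave 2 calls in 57 entries, both lower, where 1.34% of all tested genes were called lower. Ddi2 stands in 2 of the lists and is counted in each. The calls are 3.51% of these entries and are not read as a result about them. Of 6 further subunits and assembly factors, 1 was called: Pomp, which encodes the chaperone that completes core assembly. Pomp had 63.2, 65.7 and 70.2 normalised CPM (lowest, median, highest) in ETAQ and 68.0, 71.8 and 77.1 in WT, and 2 ETAQ mice overlapped the WT range. Its log2 fold change was -0.12 ± 0.03 (adjusted p = 0.0292, edgeR). This call was lost without any 1 of 11 of the 12 mice, with adjusted p up to 0.0920 (edgeR). Neither set of mice alone called Pomp, which stood at -0.11 in mice 1 to 6 (adjusted p = 0.335) and at -0.12 in mice 7 to 12 (adjusted p = 0.207, edgeR).

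Of 5 deubiquitinases and ligases that bind the proteasome, 1 was called: Uchl5, which encodes the deubiquitinase docked on the regulatory particle. Uchl5 had 52.4, 55.0 and 58.3 normalised CPM in ETAQ and 59.6, 61.7 and 65.4 in WT, without overlap. Its log2 fold change was -0.17 ± 0.03 (adjusted p = 0.00989, edgeR), -0.21 within mice 1 to 6 (adjusted p = 0.0578) and -0.13 within mice 7 to 12 (adjusted p = 0.382). Leaving out any 1 mouse kept the Uchl5 call. The neuronal markers above moved with the same groups, and their part was not tested here either.

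The remaining lists held 0 calls by edgeR with sex as covariate. Among the ubiquitin and ubiquitin-activating genes, Ubb, which encodes polyubiquitin, was at -0.11 ± 0.06 and shares sequence with other genes. Among 15 shuttle factors and p97 genes the median was 0.00. Vcp, which encodes the p97 ATPase that extracts ubiquitylated proteins, had 342 to 361 normalised CPM in ETAQ and 365 to 407 in WT, without overlap, at -0.12 ± 0.03 (adjusted p = 0.0859, edgeR). Vcp was called by DESeq2 (adjusted p = 0.00561), and by edgeR with the set of mice in place of sex (adjusted p = 0.0294) or beside it (adjusted p = 0.0418). Of its 75-base sequences, 39.9% occur in other genes. Nploc4, which encodes a p97 cofactor, was at -0.07 ± 0.03. Among 14 genes of transcriptional control the median was -0.02, and Nfe2l1 itself was at 414 ± 8.34 in ETAQ and 416 ± 9.90 in WT, a log2 fold change of -0.01 ± 0.03. The smallest p values of that list belonged to Nfyc, at -0.09 ± 0.04, and Maff, at -0.35 ± 0.18. Among 11 genes of class I antigen processing, where peptides from the proteasome are used, the median was 0.02, with the peptide transporter gene Tap2 at 0.14 ± 0.07 and the loading factor gene Tapbp at -0.10 ± 0.05.

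Promoter letters were read for 40 of the 48 genes that had an entry in the RefSeq table, in 43 windows from 250 bases before to 50 after the gene start (GRCm38.p6). Psma8, Psmb1, Psmb2, Psmb7, Psmc3, Psmd3, Psmd7 and Psmg2 had none. The antioxidant response element that Nfe2l1 and its relatives bind, searched as TGACNNNGC on both strands, was in 6 of 43 windows, against 12.4% of 32851 windows of the same length. The GC box GGGCGG was in 55.8% against 35.7%, and CCAAT in 32.6% against 37.4%. The windows compared were not matched for their content of G and C, on which such shares depend. Motifs were allowed to overlap. Printed below are the 150 bases before the gene start of the 1 called member and of 2 catalytic subunits that carry the element, with the element or a GC box in capitals. The gene start in these windows is that of RefSeq, which lies inside the GENCODE gene for 2 of them, so that 31 of the 150 bases printed for Psmc5 and 27 of those for Psmb5 are within the gene as GENCODE places it. The Psmc5 position given earlier is from GENCODE M21.

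Psmc5 (chr11:106256035-106256184, plus strand): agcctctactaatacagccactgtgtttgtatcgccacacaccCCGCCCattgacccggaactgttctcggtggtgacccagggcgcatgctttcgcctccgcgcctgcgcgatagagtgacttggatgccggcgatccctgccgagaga
Psmb6 (chr11:70525207-70525356, plus strand): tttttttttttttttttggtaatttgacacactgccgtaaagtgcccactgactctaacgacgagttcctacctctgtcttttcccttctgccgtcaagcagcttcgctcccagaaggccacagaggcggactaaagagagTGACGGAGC
Psmb5 (chr14:54617996-54618145, minus strand): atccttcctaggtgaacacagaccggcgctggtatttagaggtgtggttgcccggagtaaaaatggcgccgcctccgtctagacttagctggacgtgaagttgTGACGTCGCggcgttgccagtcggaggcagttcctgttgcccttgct

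In Psmc5 the capitals are a GC box on the minus strand that starts 107 bases before the gene start, and the element was not in its window. In Psmb6 the element starts 9 bases before the gene start and in Psmb5 47 bases before it. The 6 genes with the element had genotype log2 fold changes of 0.01 (Psmb5), -0.08 (Psmb6), -0.04 (Psmc6), -0.05 (Psmd9), -0.07 (Psmd12) and -0.05 (Psme4), none called. A match is a description of these letters and not of binding.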

How the data were processed

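Libraries were made from polyA RNA and sequenced as paired 75 bp reads, per the labels' protocols. The submitters' processing notes name Bowtie2 2.2.0 and RSEM 1.2.12. Not given in the sources used here are its genome build, annotation and strand setting. The deposited tables hold expected counts per gene, which the authors' software divides between similar genes, and 15.4% of them were not whole. TPM values in the deposited tables are scaled by length and library, per the file headers, and describe levels only. The deposited FPKM values were not used. Expected counts were rounded, filtered with filterByExpr over the 4 genotype-by-sex groups, scaled by TMM (factors 0.975 to 1.02) and tested two-sided with edgeR 4.0.16 (robust quasi-likelihood, sex as covariate, Benjamini-Hochberg over 17189 genes, threshold 0.05) in R 4.3.3. Standard errors are the absolute log2 fold change over the square root of F. DESeq2 1.42.0, limma 3.58.1, other scalings and covariates, and leaving out each mouse were alternatives. The genotype and sex fits were tested on simulated data. For genotype, 2% of 50 genes changed 1.1-fold were called, 38% at 1.2-fold and 76% at 2-fold. For sex these shares were 4%, 34% and 84%. Of all calls, 4.17% were false for genotype and 6.93% for sex. In the simulation a 1.1-fold change was thus mostly not called. Its changed genes were drawn at random from all genes that passed the filter, so these shares are not those of the members. Each sample is 1 mouse. Members, gene lists and the sets of mice 1 to 6 and 7 to 12 were chosen with earlier results of these data known. Named genes were the 2 of smallest p in each particle, the catalytic subunits, calls, and the smallest p of each related list; others were added as examples after their values were seen. One gene that this rule names is not reported here. Positions and shared 75-base sequences came from GENCODE M21 (GRCm38), with 96.6% of IDs matched, and genes sharing at least 5% are uncertain. Of the tested members, 15 are; among the other 31, 25 were below 0 and 10 of those lower at an unadjusted p under 0.05.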

Additional observations from a re-analysis of the deposited data

Results flagged for a closer look

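In 7 of 92 groups of 6 mice, 1 mouse stood far from the other 5 for a proteasome gene, and chance flags about 1 in 20 such groups. All 7 were WT groups. WT mouse 7 was the lowest for Psma5 (48.02 normalised CPM), Psma6 (73.7) and Psmc1 (152.6). WT mouse 4 was the highest for Psma7 (68.3), Psmb5 (56.69) and Psmd8 (65.67). WT mouse 10 was the highest for Psmf1 (34.67).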

How the results depend on the processing

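Psmc5 kept its direction under all 23 alternatives and its call under 22, and within mice 7 to 12 members called numbered 0. Leaving out 1 mouse gave 1 to 2 members called. The count of members lower at an unadjusted p under 0.05, 13, was 8 with upper-quartile scaling, 4 with library totals alone, 4 within mice 1 to 6, 7 within mice 7 to 12, and 8 to 14 when 1 mouse was left out. It was 15 with DESeq2 and 16 with limma-voom. The 330 genes called in all became 506 with DESeq2, 503 with set in place of sex, 138 within mice 1 to 6 and 161 within mice 7 to 12. The members' median log2 fold change ran from -0.06 to -0.03, below 0 under all 23 alternatives. Of the 46 members, 5 changed sign within mice 1 to 6 and 8 within mice 7 to 12, and up to 4 in any other fit. The size of the log2 fold change of those 13 was at most 0.08. Among the genes chosen by the naming rule, the sign turned for Psmb5 within mice 1 to 6 (-0.0258) and in 5 of the fits that left out 1 mouse (range -0.0162 to 0.0309), for Psmb8 within mice 1 to 6 (-0.0795) and without ETAQ mouse 1 (-0.0760; range over mice left out to 0.203), and for Psmb10 within mice 7 to 12 (0.0501). The cause was not tested. The within-set fits hold 3 mice per genotype each. Genes under about 3 normalised CPM, such as Psmb8, Psmb9 and Psmg4, have standard errors above 0.1. No paired analysis was possible because the genotypes share no mouse number.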
